A study of Homo sapiens with 6 samples.

Results

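The 9 genes described here encode factors of nonsense-mediated decay (NMD), and they were chosen as a list of symbols from the 31142 genes of an RNA-seq table. They are UPF1, UPF2, UPF3A, UPF3B, SMG1, SMG5, SMG6, SMG8 and SMG9. Each symbol stood under a single identifier, and all 9 passed the filter of a mean of at least 1 FPKM that kept 10942 genes for testing. FPKM divide the fragments of a gene by its transcript length and by the size of the library, so levels of different genes can be set side by side.

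NMD is the surveillance pathway that degrades mRNAs on which a ribosome stops too early, and it also sets the level of many normal transcripts. At such a stop the helicase UPF1 meets UPF2 and UPF3B or UPF3A, which are tied to exon junction complexes left behind by splicing. The kinase SMG1, held in check by SMG8 and SMG9, then phosphorylates UPF1, and the phosphorylated helicase recruits SMG5 and the endonuclease SMG6. Because mis-spliced mRNAs often carry premature stops, the pathway is commonly examined in cells with altered splicing factors such as U2AF1, which recognises the acceptor splice site.

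The libraries came from 6 samples labelled SKM-1, a human acute myeloid leukemia line that arose from myelodysplastic syndrome. In 3 of them (S34F) the cells carried S34F mutant U2AF1, and in the other 3 (WT) wild-type U2AF1. Per the study's methods, FLAG-tagged U2AF1 of either form was delivered by a lentivirus with a ubiquitin promoter and a GFP reporter, and transduced cells were selected with puromycin. The parental line expresses wild-type U2AF1, per the paper. The RNA was taken after 96 h. The titles of the WT samples also carry a prefix that the paper uses for negative controls, and the labels speak of a vehicle control, so the WT group is defined here by the U2AF1 form in its titles. The labels say triplicate, and the paper speaks of pairs of independent RNA samples, but neither says whether the 3 samples of a group were separate cultures, and p-values then measure only the spread between these samples, which may be technical.

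Depth, read from the value of 1 fragment on single-exon genes, was about 20.5 to 26.1 M fragments per library, and the FPKM of a library summed to between 335673 and 353709. U2AF1 had 9.24, 9.48 and 9.18 FPKM in S34F and 8.67, 8.70 and 7.65 FPKM in WT, a log2 difference of 0.14 (limma p = 0.194, exact permutation p = 0.1). Gene-level FPKM cannot separate the introduced from the native gene or the S34F from the wild-type allele. S34F replicate 3 stood apart, with a Pearson r of 0.953 to 0.975 with the other libraries across genes, against 0.973 to 0.986 among the others. Its r was 0.953 and 0.954 with S34F replicates 1 and 2 and highest, at 0.975, with WT replicate 3. WT replicate 3 was also somewhat apart, at 0.973 to 0.976 with replicates 1 and 2 of both groups. Those had 0.982 to 0.986 among themselves. Markers did not match a monocytic myeloid line. Of 12 erythroid markers, all were in the table and 9 had a mean of at least 10 FPKM (median 163.1 FPKM, summed level 10818 to 12209 in S34F and 10629 to 11202 in WT). Of 12 monocytic markers, 11 were in the table, 7 had a mean under 1 FPKM and 2, LYZ and CD68, one of at least 10 FPKM (median 0.390 FPKM, summed level 46.6 to 76.4 in S34F and 67.6 to 89.3 in WT), and MPO, S100A8, FCN1 and CSF1R were at or near 0. Of the 4 monocytic markers tested, ITGAM (1.48, 1.70 and 2.25 FPKM in S34F, 3.43, 3.30 and 2.35 FPKM in WT) and CD33 (1.80, 1.84 and 2.52 FPKM in S34F, 2.62, 2.61 and 3.26 FPKM in WT) were lower in all S34F libraries. Both had an unadjusted limma p under 0.05 (background 1.57% with S34F lower) and an adjusted p of 1.00. ITGAM lost that call without S34F replicate 1, WT replicate 1 or WT replicate 2, and CD33 lost it without any 1 library other than S34F replicate 3. CD68, the most abundant of the list, had 43.2, 32.9 and 46.3 FPKM in S34F and 42.0, 48.9 and 64.6 FPKM in WT, and CEBPA, under the filter, had 0.955, 0.830 and 0.769 FPKM in S34F and 0.539, 0.469 and 0.723 FPKM in WT. LYZ had 8.52, 8.82 and 23.2 FPKM in S34F and 18.8, 16.96 and 17.6 FPKM in WT. The part of these markers in the values of the NMD factors was not tested.

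Part of the SMG1 sequence recurs elsewhere in the genome, in copies that were themselves measured at a higher summed level. SMG1 (ENSG00000157106, chr16:18804853-18926454, minus strand, GRCh38) has 7 pseudogene copies on chromosome 16, SMG1P1 to SMG1P7. Of the 50-base words in its coding sequence of 10983 bases (GENCODE 29), 24.5% also stood in transcripts of 12 other genes, all of these words between coding bases 65 and 4200. The first stretch below, coding bases 1297 to 1356, is shown because it stands letter for letter in all 7 copies, so a read from it has no unique origin. The other, coding bases 1 to 60, shares no 50-base word with another gene.
SMG1 shared stretch: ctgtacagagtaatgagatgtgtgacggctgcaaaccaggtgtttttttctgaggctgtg
SMG1 unshared stretch: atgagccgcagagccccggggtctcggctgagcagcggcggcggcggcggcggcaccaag

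The 7 copies together had 12.4 to 14.4 FPKM in the 6 libraries, while SMG1 itself had 1.49 to 2.39 FPKM. The copies thus summed to more than the parent gene in every library. How the authors' counting divided such reads is not given in the sources used here, so the level of SMG1 depends in part on that division, while 75.5% of its words were found in no other gene.

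UPF3A and UPF3B are paralogs, and the pair below shows where their coding sequences are most alike: coding bases 682 to 741 of UPF3A and 619 to 678 of UPF3B (GENCODE 29), identical at 51 of 60 positions (85.0%). Capitals mark the 9 mismatches.
UPF3A: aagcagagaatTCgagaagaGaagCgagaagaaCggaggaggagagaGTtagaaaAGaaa
UPF3B: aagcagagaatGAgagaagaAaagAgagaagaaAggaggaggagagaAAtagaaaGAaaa

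Even at this closest point the paralogs shared no 50-base word, so a read of that length matching without error belongs to 1 of them. UPF3A did share 56.3% of its 50-base words with its processed pseudogenes UPF3AP1, UPF3AP2 and UPF3AP3. These copies summed to only 0.331 to 0.596 FPKM, against 5.55 to 8.45 FPKM for UPF3A. SMG8 shared 5.13% of its words with 1 overlapping gene model, AC099850.2, and UPF1, UPF2, UPF3B, SMG5, SMG6 and SMG9 shared 0%. On the opposite strand, HIC1 overlaps 22.9% of the exon bases of SMG6, and without strand information reads of the overlap cannot be told apart. HIC1 had a mean of 0.262 FPKM and SMG6 one of 2.64 FPKM.

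The 9 factors spanned more than an order of magnitude in level. SMG5, the adaptor of phosphorylated UPF1, was the most abundant at a mean of 39.7 FPKM over the 6 libraries, and UPF1 followed at 24.6 FPKM. SMG8 had 9.71 FPKM, SMG9 7.69 FPKM and UPF3A 6.74 FPKM. UPF2 had 2.74 FPKM, SMG6 2.64 FPKM, UPF3B 1.89 FPKM and SMG1 1.74 FPKM. Neighbours in this order whose ranges over the 6 libraries were apart were SMG5 and UPF1, UPF1 and SMG8, UPF3A and UPF2, and SMG6 and UPF3B. The ranges overlapped for SMG8 and SMG9, SMG9 and UPF3A, UPF2 and SMG6, and UPF3B and SMG1. Ranges do not compare 2 genes within a library, so their overlap does not show that the levels were equal. The core helicase and SMG5 were thus well above the other factors, and UPF3B and SMG1, with overlapping ranges, had the lowest means. Summed over the 9 genes the level was 95.4 to 99.96 FPKM per library.

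**Figure D1:**
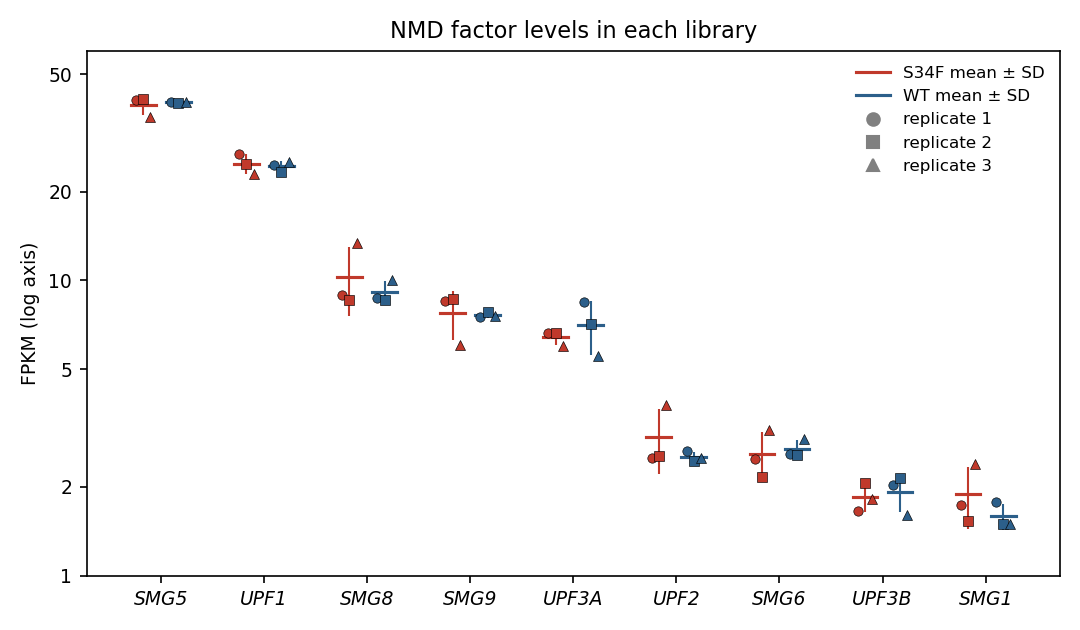
FPKM (log axis) of each NMD factor in each library, S34F in red and WT in blue, with symbols for replicates 1 to 3, horizontal lines for group means and vertical lines for the SD (n = 3). The order runs from SMG5 (39.7 FPKM) to SMG1 (1.74 FPKM), and the S34F replicate 3 triangle lies above the other libraries for SMG8, UPF2, SMG6 and SMG1 and below them for SMG9, SMG5 and UPF1.

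The main comparison asked whether the mRNAs of the NMD factors differed between S34F and WT cells. None of the 9 passed any rule used for a difference, at the precision that 3 libraries a group allow. With limma on log2(FPKM + 1), 0 of 9 had an unadjusted p under 0.05, where 2.39% of the 10942 genes tested did (0.823% with S34F higher and 1.57% with S34F lower). With the replicate number as a block, again 0 of 9 did, beside 4.05% of all genes. A fold change above 1.5 together with that p was met by 0 of 9 members and 0.585% of genes. These are the study's cut-offs for a differentially expressed gene, applied here to limma on the scale of FPKM + 1. The share is therefore not comparable with the count that the study reported. The Benjamini-Hochberg adjusted p from limma was 1.00 for every member, and 0 genes (0.0%) of the whole table had one under 0.05. In 0 of 9 members did the groups fail to overlap, which they did for 3.66% of genes with S34F higher and 3.73% with S34F lower. All 9 had a 95% interval within 1.5-fold either way on the scale of FPKM + 1, as had 73.7% of genes. That scale understates low genes. With a pseudocount of 0.01, close to the FPKM themselves, 6 of 9 intervals lay within 1.5-fold (52.7% of genes), and with 0.1 again 6 of 9 (54.9% of genes). Outside were SMG1, whose interval at 0.01 ran from 0.820 to 1.66 times the WT level, UPF2 (0.831 to 1.57 times) and SMG8 (0.805 to 1.53 times). Differences up to these limits thus lay inside the intervals and were not excluded by these libraries. The median log2 fold change was 0.0047 over the members, with 5 above 0 and 4 below. Over all genes tested it was 0.015, with 5973 above 0 and 4969 below. The median size of the change, regardless of sign, was 0.049 for the members and 0.087 for all genes. With 3 samples against 3, an exact permutation test cannot go below p = 0.1, two-sided.

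UPF1 (ENSG00000005007, chr19:18831938-18868236, plus strand), the helicase on which the pathway turns, had 26.7, 24.9 and 23.0 FPKM in S34F replicates 1, 2 and 3 and 24.7, 23.3 and 25.1 FPKM in WT. The S34F libraries enclosed all 3 WT libraries. S34F differed from WT by a log2 fold change of 0.03 (95% interval -0.22 to 0.27, limma p = 0.809, exact permutation p = 0.9). With a pseudocount of 0.01 the interval was 0.853 to 1.22 times the WT level. UPF1 was among the least variable genes, with a coefficient of variation of 5.52% over the 6 libraries, and 95.4% of the genes tested varied at least as much. That share is over genes of all levels tested and was not matched for level. At about 2929 fragments or more per library, counting error accounts for at most 1.85% of its level.

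UPF2 (ENSG00000151461, chr10:11920022-12043170, minus strand), the bridge between UPF1 and the UPF3 proteins, had 2.503, 2.54 and 3.79 FPKM in S34F and 2.64, 2.45 and 2.502 FPKM in WT. S34F replicate 3 alone was high, and the other 5 libraries lay between 2.45 and 2.64 FPKM. Its log2 fold change was 0.14 (95% interval -0.20 to 0.49, limma p = 0.355, exact permutation p = 0.5). It was -0.0028 without S34F replicate 3.

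UPF3A (ENSG00000169062, chr13:114281584-114305817, plus strand) and UPF3B (ENSG00000125351, chrX:119805311-119852998, minus strand) tie the pathway to exon junction complexes. UPF3A had 6.66, 6.64 and 6.01 FPKM in S34F and 8.45, 7.11 and 5.55 FPKM in WT. The WT libraries were the wider group here and enclosed all S34F libraries. UPF3A gave a log2 fold change of -0.10 (95% interval -0.46 to 0.26, limma p = 0.541, exact permutation p = 0.7), and it went to 0.03 without WT replicate 1. UPF3B had 1.66, 2.06 and 1.82 FPKM in S34F and 2.03, 2.14 and 1.60 FPKM in WT, with overlapping groups and a log2 fold change of -0.03 (95% interval -0.32 to 0.25, limma p = 0.781, exact permutation p = 0.8). UPF3B rested on the fewest reads of the 9, about 80.9 fragments in its lowest library, for a counting error of 11.1%, which is close to its coefficient of variation of 11.9%.

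UPF3A was higher than UPF3B in every library. The ratio of their FPKM was 4.003, 3.22 and 3.30 in S34F and 4.17, 3.33 and 3.47 in WT, with a mean of 3.58. The log2 ratio differed between the groups by -0.06 (exact permutation p = 0.5, two-sided). Replicate 1 gave the highest ratio in both groups.

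SMG1, the kinase, had 1.74, 1.53 and 2.39 FPKM in S34F and 1.78, 1.492 and 1.498 FPKM in WT. Only S34F replicate 3 exceeded the WT range. For SMG1 the log2 fold change was 0.15 (95% interval -0.18 to 0.47, limma p = 0.325, exact permutation p = 0.5), and 0.03 without S34F replicate 3. The pseudogene sum was also highest in S34F replicate 3, at 14.4 FPKM. The part of shared reads in the level of SMG1 was not tested.

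SMG8 (ENSG00000167447, chr17:59209400-59215247, plus strand), a partner that restrains SMG1, had 8.90, 8.59 and 13.4 FPKM in S34F and 8.70, 8.58 and 10.05 FPKM in WT. In both groups replicate 3 was the highest. S34F and WT differed by a log2 fold change of 0.14, with the widest interval of the members (-0.28 to 0.56, limma p = 0.461, exact permutation p = 0.6), and it turned to -0.05 without S34F replicate 3. SMG9 (ENSG00000105771, chr19:43727992-43754990, minus strand), the other partner, had 8.54, 8.63 and 6.07 FPKM in S34F and 7.51, 7.81 and 7.58 FPKM in WT. Here S34F replicate 3 was the lowest of the 6 libraries, and S34F replicates 1 and 2 were above all WT libraries. SMG9 gave a log2 fold change of 0.0047 (95% interval -0.34 to 0.35, limma p = 0.975, exact permutation p = 1.0). Without S34F replicate 3 it was 0.15 (95% interval -0.03 to 0.34, adjusted p = 0.535 from limma).

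As SMG8 and SMG9 went in opposite directions in S34F replicate 3, their ratio, chosen after its values were seen, was 2.22 in that library and 0.996 to 1.33 in the other 5. The ratio of SMG8 to SMG1, chosen in the same way, was 5.63 in S34F replicate 3, inside the 4.89 to 6.71 of the other libraries.

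SMG5 (ENSG00000198952, chr1:156249224-156282825, minus strand) had 40.7, 41.2 and 35.8 FPKM in S34F and 40.2, 40.1 and 40.3 FPKM in WT. The WT libraries were nearly equal, and S34F replicate 3 was the only library under 40 FPKM. For SMG5 the log2 fold change was -0.04 (95% interval -0.27 to 0.20, limma p = 0.723, exact permutation p = 1.0). With a coefficient of variation of 4.92%, SMG5, also the most abundant, was the steadiest member. Without matching for level, 97.0% of the genes tested varied at least as much. SMG6 (ENSG00000070366, chr17:2059839-2303771, minus strand), the endonuclease that cuts the target mRNA, had 2.49, 2.16 and 3.11 FPKM in S34F and 2.59, 2.57 and 2.91 FPKM in WT. As for SMG8, replicate 3 was the highest in both groups. SMG6 gave a log2 fold change of -0.05 (95% interval -0.35 to 0.26, limma p = 0.716, exact permutation p = 0.8).

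**Figure D2:**
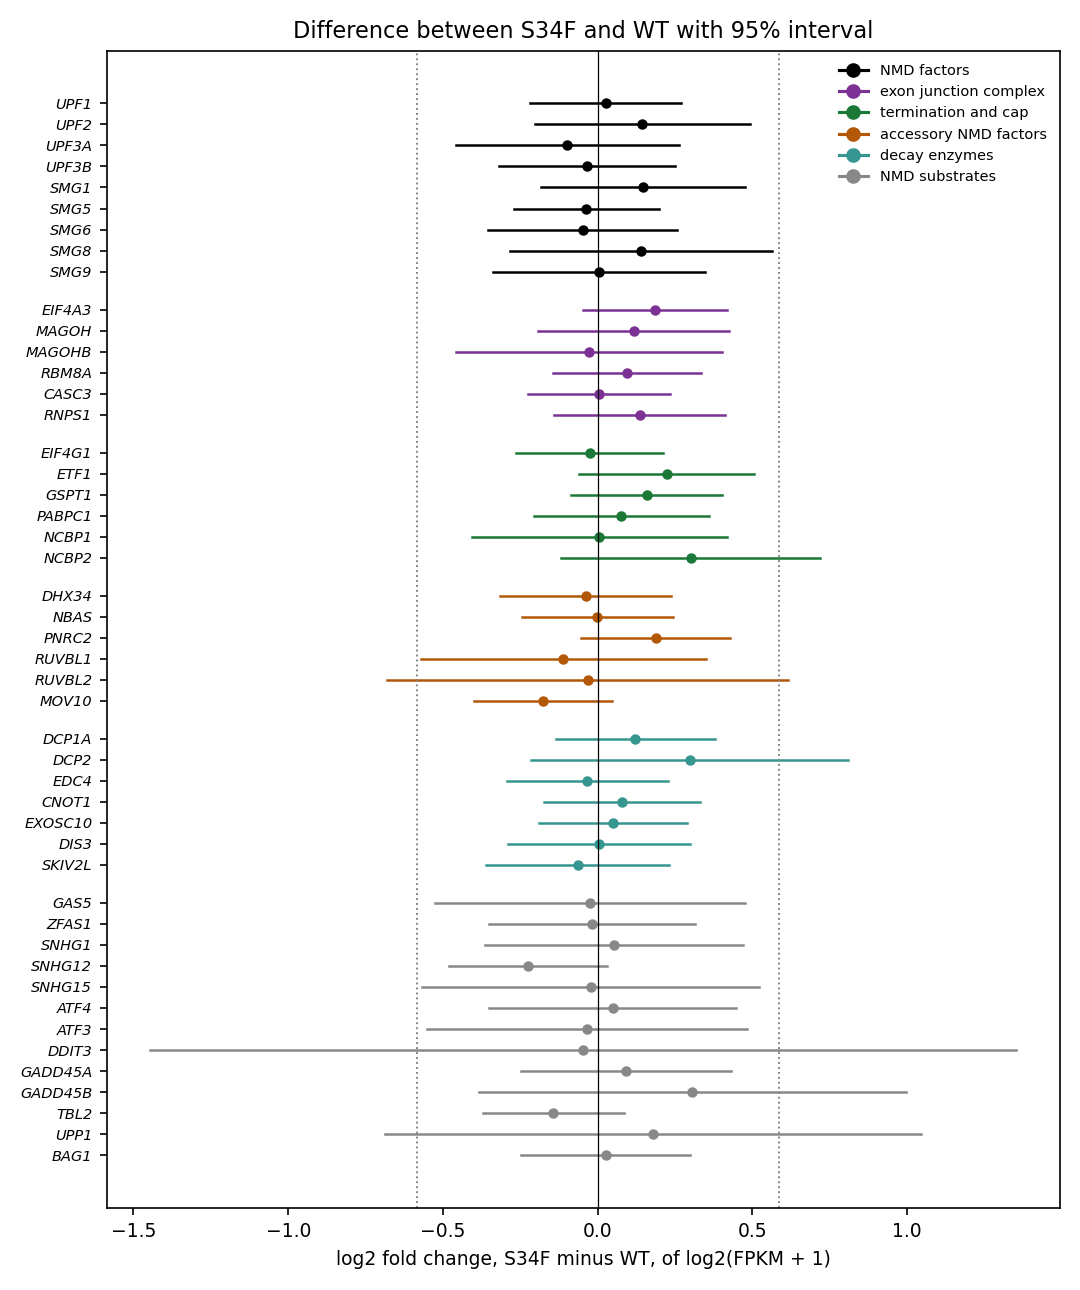
Log2 fold change of S34F over WT on the log2(FPKM + 1) scale (points) with 95% intervals from limma (lines) for the 9 NMD factors and 38 genes of 5 related lists, with dotted lines at 1.5-fold either way. All of these intervals cross 0, and the 9 factors lie inside the dotted lines.

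S34F replicate 3 was the highest or lowest library for most members. It was the highest of the 6 libraries for 4 members (UPF2, SMG1, SMG6 and SMG8) and the lowest for 3 (UPF1, SMG5 and SMG9), which left UPF3A and UPF3B. Over all genes tested it was the highest library for 31.4% and the lowest for 27.3%. Relative to the mean of S34F replicates 1 and 2, SMG8 was 1.54 times as high in S34F replicate 3, UPF2 1.501 times, SMG1 1.46 times and SMG6 1.34 times. SMG9 stood at 0.707 times, SMG5 at 0.875 times, UPF1 at 0.890 times, UPF3A at 0.903 times and UPF3B at 0.975 times. These shifts were ordinary for that library: 10.2% of genes were shifted up at least as far as SMG8 and 15.3% as far as UPF2, and 14.8% were shifted down at least as far as SMG9.

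In WT replicate 3 a different set of members moved. UPF3A stood at 0.713 times the mean of WT replicates 1 and 2, a fall at least matched by 8.27% of genes, and UPF3B at 0.768 times (22.8%). SMG8 was 1.16 times and SMG6 1.13 times as high, and the remaining 5 lay between 0.915 and 1.05 times. Of the 9, SMG8 and SMG6 were thus the members raised in replicate 3 of both groups. Across 10928 genes with a known length and base composition, the shift of S34F replicate 3 ran with GC content at a Spearman rho of -0.25, and that of WT replicate 3 at 0.19, as descriptions over genes, which are not independent. The GC content was 40.3% for UPF2, 43.2% for SMG1 and 47.8% for SMG8, which were high in S34F replicate 3, and 55.3% for SMG9, 57.6% for SMG5 and 60.5% for UPF1, which were low. SMG6, at 55.3%, was high, and UPF3A and UPF3B, both at 41.8%, were not. The part of base composition in these shifts was not tested. In bulk RNA a lower level can be fewer cells of a kind or less RNA per cell, which cannot be told apart.

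**Figure D3:**
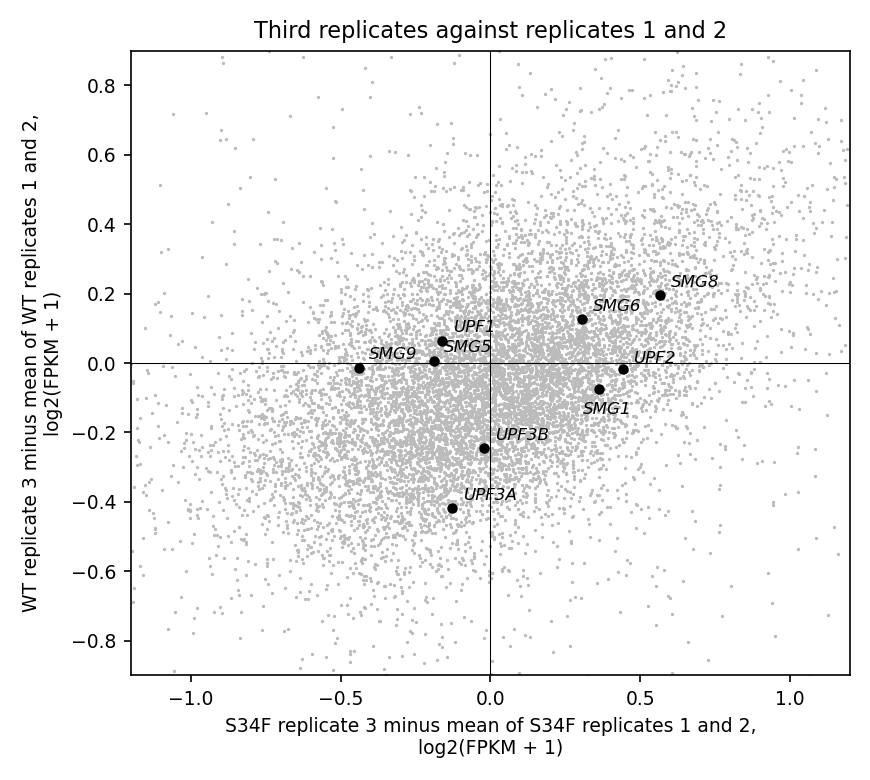
Shift of replicate 3 against the mean of replicates 1 and 2 on the log2(FPKM + 1) scale, S34F on the horizontal and WT on the vertical axis, for 10942 genes (grey, 376 of them outside the axes) and the 9 NMD factors (black). SMG8 (0.57 in S34F, 0.20 in WT) and UPF2 (0.44, -0.02) lie to the right, SMG9 (-0.44, -0.01) to the left and UPF3A (-0.13, -0.42) at the bottom, all within the cloud of other genes.

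Without S34F replicate 3, 0 of 9 members had an unadjusted p under 0.05 from limma, beside 10.6% of all genes. The groups then failed to overlap for 2 members with S34F higher (SMG5 and SMG9), beside 18.2% of genes, and for 1 with S34F lower (SMG6), beside 15.6% of genes. Log2 fold changes then ran from -0.15 for SMG6 to 0.15 for SMG9. Without replicate 3 of both groups, 0 of 9 had an unadjusted p under 0.05 from limma, beside 16.9% of all genes, or an adjusted one, beside 0.0731% of genes. The groups then failed to overlap for 3 members with S34F higher (24.8% of genes) and for 2 with S34F lower (26.6% of genes). Over 17 alternative settings and 149 values of the members, 0 reached an unadjusted limma p under 0.05, and the smallest adjusted p was 0.300. The smallest unadjusted limma p, 0.0519, was just above that limit. It was that of SMG9 without replicate 3 of both groups (log2 fold change 0.147).

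The genes with which the factors work were described by 5 lists with 40 genes, of which 38 passed the filter. An unadjusted p under 0.05 from limma was reached by 0 of 38 (background 2.39%). On the scale of FPKM + 1, 32 of 38 intervals lay within 1.5-fold (background 73.7%). The groups failed to overlap for 4 genes with S34F higher and for 3 with S34F lower, together 18.4% of the 38 beside 7.38% of all genes. These were EIF4A3, ETF1, PNRC2 and DCP1A on the higher side and MOV10, SNHG12 and TBL2 on the lower, 5 of them named after their values were seen. Their differences were small, between -0.23 and 0.22 in log2.

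The exon junction complex marks spliced junctions and is the anchor of UPF3B and UPF3A. Of its 6 genes, 5 had a log2 fold change above 0, as had 5973 of all 10942 genes tested. The median was 0.10, beside 0.015 for all genes. EIF4A3, the helicase that clamps the complex on RNA, had 17.5, 17.2 and 17.8 FPKM in S34F and 15.8, 15.9 and 14.1 FPKM in WT. All S34F values were above all WT values, with a log2 fold change of 0.19 (limma p = 0.101, exact permutation p = 0.1). MAGOH, the most abundant gene of the list, had 46.0, 49.2 and 58.6 FPKM in S34F and 48.8, 50.5 and 42.2 FPKM in WT, with overlapping groups (log2 fold change 0.12, limma p = 0.404, exact permutation p = 0.5).

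Translation termination and the mRNA cap set the stage on which UPF1 acts. Of 6 genes, 5 had a log2 fold change above 0, with a median of 0.12. PABPC1, the cytoplasmic poly(A)-binding protein that opposes NMD near the end of an mRNA, had 177.0, 164.9 and 162.0 FPKM in S34F and 168.4, 174.6 and 137.0 FPKM in WT (log2 fold change 0.08, limma p = 0.543, exact permutation p = 0.8). NCBP2, the small subunit of the nuclear cap-binding complex, had 7.69, 7.91 and 9.26 FPKM in S34F and 8.23, 4.97 and 6.72 FPKM in WT. WT replicate 2 was low, and the groups overlapped through WT replicate 1 (log2 fold change 0.30, limma p = 0.132, exact permutation p = 0.3). Without WT replicate 1 the log2 fold change was 0.45, which passed an unadjusted p of 0.05 in limma (adjusted p = 1.00). ETF1, the release factor that reads stop codons, had 42.8, 38.4 and 40.2 FPKM in S34F and 38.0, 35.9 and 30.2 FPKM in WT, with a log2 fold change of 0.22 (limma p = 0.105, exact permutation p = 0.1).

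Among 6 accessory factors, 1 had a log2 fold change above 0. This was PNRC2, which links UPF1 to decapping, at 3.63, 3.51 and 3.29 FPKM in S34F and 3.14, 2.98 and 2.69 FPKM in WT (log2 fold change 0.19, limma p = 0.108, exact permutation p = 0.1). MOV10, an RNA helicase that binds UPF1, had 13.2, 14.0 and 12.8 FPKM in S34F and 14.8, 15.4 and 15.3 FPKM in WT (log2 fold change -0.18, limma p = 0.104, exact permutation p = 0.1). RUVBL2, an ATPase that acts with SMG1, had 127.8, 126.6 and 63.5 FPKM in S34F and 108.5, 109.4 and 92.8 FPKM in WT. Its level in S34F replicate 3 was thus the lowest of the 6 libraries. RUVBL2 gave a log2 fold change of -0.03 with all libraries (limma p = 0.909, exact permutation p = 1.0). Without S34F replicate 3 it was 0.30, which passed an unadjusted p of 0.05 in limma (adjusted p = 0.385).

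Of 9 genes for decapping and exonuclease decay, DCP1B and XRN1 had a mean under 1 FPKM and were not tested. Of the 7 tested, 5 had a log2 fold change above 0, with a median of 0.05. DCP2, the decapping enzyme, had 2.65, 2.18 and 2.56 FPKM in S34F and 2.42, 0.997 and 2.26 FPKM in WT. WT replicate 2 was again the low library (log2 fold change 0.30, limma p = 0.210, exact permutation p = 0.3). EDC4, the scaffold of decapping and the most abundant gene of the list, had 26.5, 25.4 and 21.8 FPKM in S34F and 24.4, 25.1 and 25.8 FPKM in WT (log2 fold change -0.03, limma p = 0.764, exact permutation p = 0.9).

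Transcripts known as NMD substrates rise in many cell types when the pathway is blocked. Of 13 such genes, 6 had a log2 fold change above 0 and 7 below, with a median of -0.02, and for 0 was the unadjusted limma p under 0.05. ATF4, the transcription factor of the integrated stress response and the most abundant gene of the list, had 140.8, 134.8 and 195.0 FPKM in S34F and 137.0, 142.9 and 170.7 FPKM in WT (log2 fold change 0.05, limma p = 0.781, exact permutation p = 0.9). As for SMG8 and SMG6, replicate 3 was the highest in both groups. GADD45B, a stress-induced gene, had 1.94, 1.91 and 4.93 FPKM in S34F and 1.76, 1.76 and 2.54 FPKM in WT (log2 fold change 0.31, limma p = 0.327, exact permutation p = 0.5). Again replicate 3 was the highest of each group.

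SNHG12, a spliced host of small nucleolar RNAs, had 2.29, 2.24 and 2.06 FPKM in S34F and 2.68, 3.08 and 2.47 FPKM in WT (log2 fold change -0.23, limma p = 0.0748, exact permutation p = 0.1). This was the smallest p of the 38 genes, and without WT replicate 3 the log2 fold change was -0.28, which passed an unadjusted p of 0.05 in limma (adjusted p = 1.00). TBL2, a further substrate, had 6.91, 7.15 and 7.04 FPKM in S34F and 7.47, 8.29 and 7.88 FPKM in WT (log2 fold change -0.14, limma p = 0.179, exact permutation p = 0.1). Both lay lower in all S34F libraries.

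S34F replicate 3 was the highest of the 6 libraries for 7 of the 13 substrates (GAS5, ZFAS1, ATF4, DDIT3, GADD45B, UPP1 and BAG1) and the lowest for 1, beside 31.4% and 27.3% of all genes. Of these, all but BAG1 were also highest among the WT libraries in WT replicate 3. ATF3 was highest of all in WT replicate 3 (9.86 FPKM, against 8.52 FPKM in S34F replicate 3). SNHG1, SNHG15 and BAG1 were lowest there. The shares of all genes for WT replicate 3 are not given here. DDIT3, a stress-response transcription factor named after its values were seen, had 20.1, 15.6 and 79.0 FPKM in S34F and 23.7, 25.9 and 45.7 FPKM in WT. In S34F replicate 3, 4 of the 9 factors (UPF2, SMG1, SMG6 and SMG8) were highest and 3 (UPF1, SMG5 and SMG9) lowest, beside 31.4% and 27.3% of all genes. As background, ATF4 and DDIT3 are also regulated by the integrated stress response, apart from NMD.

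**Figure D4:**
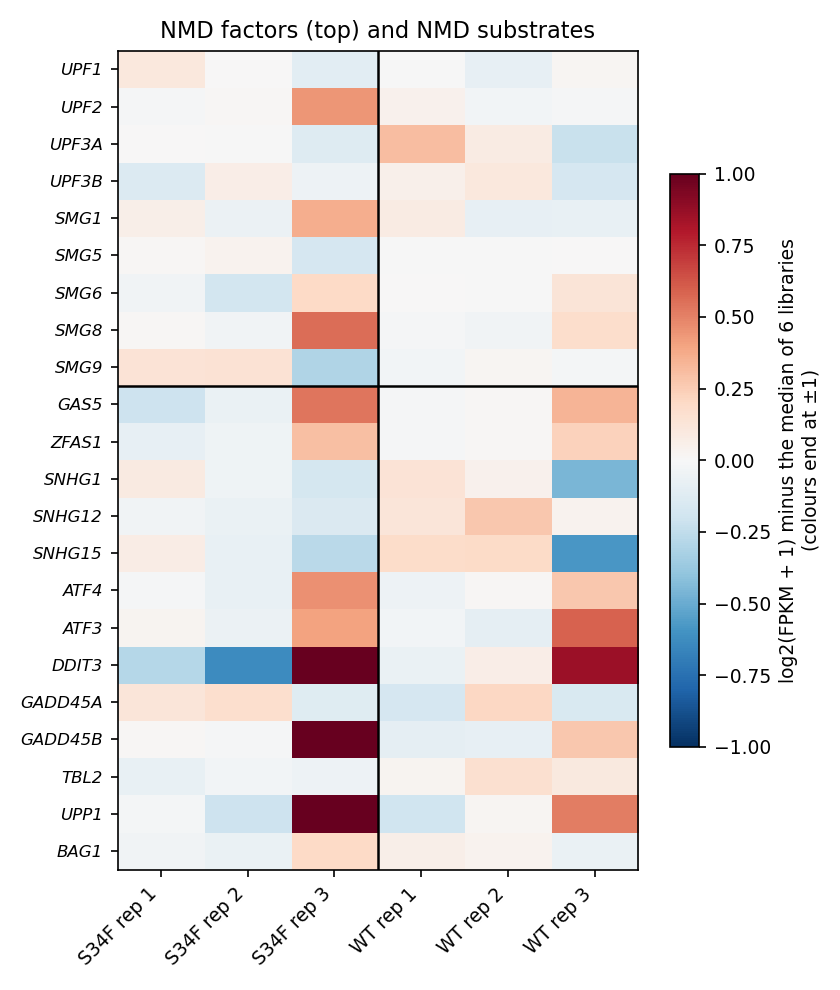
Colour shows log2(FPKM + 1) of each library (columns, S34F left of the line, WT right) minus the median of the 6 libraries, for the 9 NMD factors (top) and 13 NMD substrates, with colours ending at 1 in either direction. DDIT3 (1.64), UPP1 (1.104) and GADD45B (1.02) in S34F replicate 3 reach the end of the scale, and among the factors SMG8 (0.56), UPF2 (0.44) and SMG1 (0.36) are red and SMG9 (-0.30) is blue in that column. WT replicate 3 also holds strong colours, red for DDIT3 (0.86) and ATF3 (0.59) and blue for SNHG15 (-0.58).

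The genes most like each member were sought by Pearson r of log2(FPKM + 1) over the 6 libraries among 5649 genes with a mean of at least 5 FPKM, as a description. UPF1 ran most closely with RAB35 (r = 0.991), AKIP1 (0.987) and TAB1 (0.984). SMG5 ran with SELENON (0.998), SMG8 with DYNC1H1 and POLR2A (both 0.997) and SMG9 with ARAF (0.996). UPF2 ran with CTR9 (0.995), RHEB (0.995) and IK (0.992). For UPF2 the likeness rested on S34F replicate 3, since r was 0.679, 0.650 and 0.543 without that library, while it was 0.986, 0.979 and 0.987 for the 3 genes nearest UPF1. UPF3A was nearest to SNHG19 (0.990), UPF3B to SRRM2 (0.987), SMG1 to AC026410 (0.990) and SMG6 to OSTF1 (0.988). An r above 0.9 was common, being reached by 28 genes for UPF3B and by 572 for SMG9.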

How the data were processed

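RNA-seq of 6 libraries labelled SKM-1, 3 S34F and 3 WT, was analysed from 1 deposited table of FPKM per gene. The authors made the FPKM from their reads. The submitters' processing notes name StringTie and edgeR without a role, and the aligner, genome build, strand and treatment of multi-mapping reads are not given in the sources used here. Of the values above 0, 99.9924% were not whole (tolerance 1e-06), so no count test was run. The authors' fold changes, p-values and q-values in the same table were not used.

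FPKM as deposited were tested with limma 3.58.1 (R 4.3.3, empirical Bayes with a variance trend) on log2(FPKM + 1), pseudocount 1, over the 10942 genes with a mean of at least 1 FPKM, with Benjamini-Hochberg adjustment over these genes. Fold changes are on that scale, which understates the change of low genes. Exact permutation tests (scipy 1.17.1) were two-sided, on the log2 values of 1 gene or ratio.

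Approximate depths came from 4141 single-exon genes, and fragments per gene assume the longest transcript. These precisions cover counting error only. Positions and sequences came from GENCODE 29 (GRCh38), which holds 31002 of the 31142 identifiers.

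The members and lists were chosen with earlier results of these data known. From each list the text names genes with an unadjusted p under 0.05, the most abundant gene and the one with the largest absolute log2 fold change. Other genes were named after their values were seen. Deviations of same-numbered libraries from their group means correlated at 0.212, 0.174 and 0.380 for replicates 1, 2 and 3, all over 0.1. Unlike numbers reached 0.197 (S34F 2, WT 1) and 0.134 (S34F 1, WT 2), so the data do not tell replicates 1 and 2 apart. Taken from a group mean, the deviations of replicates 1 and 2 together are the reverse of that of replicate 3. The values for replicates 1 and 2 are thus not independent of the 0.380 for replicate 3. The paper speaks of pairs of samples, without naming them, and a replicate block was fitted as an alternative. Further alternatives were other scalings, filters, pseudocounts and variance models, and libraries left out. Python 3.11.15, numpy 2.4.6, pandas 2.3.3 and matplotlib 3.10.9 were used.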

Additional observations from a re-analysis of the deposited data

How the results depend on the processing

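The count of members with an unadjusted p under 0.05 stayed at 0 under all 17 alternatives, and so did those with an adjusted p under 0.05 or a fold change above 1.5, but the signs of such small differences did not hold. Leaving out 1 library at a time gave log2 fold changes of -0.0262 to 0.0793 for UPF1, -0.00275 to 0.222 for UPF2, -0.237 to 0.0273 for UPF3A, -0.116 to 0.0194 for UPF3B, 0.0251 to 0.236 for SMG1, -0.0723 to 0.0262 for SMG5, -0.151 to 0.0386 for SMG6, -0.0500 to 0.245 for SMG8 and -0.0716 to 0.151 for SMG9. Over the same fits the members' median ran from -0.0262 to 0.0273, and the log2 difference of UPF3A to UPF3B from -0.158 to 0.0397. The members whose groups do not overlap ran from 0 to 3. The 3 came without S34F replicate 3, where 18.2% of all genes did so with S34F higher and 15.6% with S34F lower. For the other fits of this kind the share of all genes is not given here. The members with an interval within 1.5-fold ran from 6 to 9, again without a share of all genes for these fits. They numbered 6 at a pseudocount of 0.1 (54.9% of all genes) or 0.01 (52.7%). Genes at an unadjusted p under 0.05 ran from 0 to 1 among termination and cap genes, accessory factors and substrates, and over all genes from 162 to 1160, with 66 to 180 also above 1.5-fold and 0 to 3 at an adjusted p under 0.05. Without replicate 3 of both groups UPF2 was at -0.0084, SMG1 at -0.000199, SMG5 at 0.0286, and the median was -0.000199. The groups did not overlap for 5 members, beside 24.8% of all genes with S34F higher and 26.6% with S34F lower. In that fit 1 termination and cap gene, 1 accessory factor, 2 substrates and 1846 of all genes passed an unadjusted p under 0.05, 183 of them above 1.5-fold and 8 at an adjusted p under 0.05. Quantile normalization gave -0.0028 for UPF1, -0.0129 for SMG9 and -0.0129 for the median. The filter at 5 FPKM kept 5649 genes with 5 members and called 113 of these genes, 22 of them above 1.5-fold. All 5 members had an interval within 1.5-fold, without a share of all genes for that filter. Without a filter 904 genes and 1 accessory factor were called, out of a number of genes not given here. A pseudocount of 0.1 or 0.01 gave 122 genes above 1.5-fold. With the replicate block 443 genes were called and 262 without it, and it changed no call of a member or list. The cause of these changes was not tested.

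By counting error, depth limited UPF3B most. FPKM give only approximate counts, and how reads that SMG1 shares with its copies were divided is not known.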
